A study of Homo sapiens with 4 samples.

Results

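The HOX genes lie in 4 clusters, HOXA, HOXB, HOXC and HOXD, and their open chromatin was examined in SEM leukemia cells. The members were 38 protein-coding HOX genes, and every consensus ATAC-seq peak from 10 kb before the first to 10 kb after the last of them in a cluster was taken, whatever its count. This gave 48 of the 139872 consensus peaks of the series, with 17 in HOXA, 9 in HOXB, 14 in HOXC and 8 in HOXD. The rule used positions only.

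ATAC-seq measures accessibility through a transposase that inserts sequencing adaptors into open DNA. SEM is a human B cell precursor leukemia line with a rearranged MLL (KMT2A) gene. All cells carried dCas9-KRAB, in which the KRAB repressor domain is joined to a Cas9 that cannot cut, and were selected with puromycin for a lentiviral guide RNA, either sgFLT3-DE-1, aimed at a HOXA9-bound distal enhancer of FLT3, or sgNT, a non-target control. There were 2 libraries per guide, numbered 1 and 2, which the study's supplement calls biological replicates. No source used here says whether they were separate transductions or cultures, so p-values measure only the spread between these libraries. It is not stated either whether the cells were a clone.

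HOX genes encode homeodomain transcription factors that set the body axis in the embryo, and genes of the same number in different clusters are paralogues that arose when an ancestral cluster was duplicated. Within a cluster all members are read in the same direction, with the highest numbers at the 5′ end. In blood, HOXA genes from the middle and 5′ part of their cluster are active in stem and progenitor cells and are shut off during differentiation, and leukemias with MLL fusion proteins are known for keeping HOXA9 on, together with its cofactor MEIS1.

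Total counts were 3670758 and 4831164 in the sgFLT3-DE-1 libraries and 3321429 and 2683477 in the sgNT libraries. The HOX peaks held 0.0226% of all counts, between 628 and 1279 per library, so most single values rest on few reads (median of the mean count per HOX peak 10.9, lowest 3.0, highest 110.8). The peak that holds the guide's target on chromosome 13 had 60.0 and 67.6 CPM with sgFLT3-DE-1 and 116 and 128 CPM with sgNT. Its log2 fold change was -0.92 (SE 0.264, unadjusted p = 0.00164, adjusted p = 1.0 over all tested peaks by edgeR), so the target itself did not pass FDR 0.05. Of 12 marker genes of B cell precursors, 10 had a promoter peak, against 5 of 8 myeloid genes, 3 of 8 T cell genes, 2 of 7 genes of other tissues and 1 of 7 erythroid genes. That erythroid gene was HBB, where both peaks past FDR 0.05 in the whole series lay, with summed levels of 520 and 217 CPM with sgFLT3-DE-1 and 56.0 and 41.5 CPM with sgNT. CPM here means counts scaled to a common library total after TMM normalisation (the trimmed mean of M-values), and levels are compared between peaks only as CPM per kb of peak.

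Several short sequences show what the measurements sit on. The protospacer of sgFLT3-DE-1 is printed because it defines the treatment. It had 1 exact site in GRCh37 (hg19), chr13:28843152-28843171 on the + strand. No site with up to 4 mismatches next to an NGG motif was found in any HOX window.
sgFLT3-DE-1: aacacctgtgaaatgactgt

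The HOXA9 gene is the member the study turns on, so the 300 bases upstream of its main coding start follow, read on the - strand (GRCh37, chr7:27205157-27205456). Capitals mark the 90 bases that fell inside HOXA peak 10. This was the only HOX peak that overlapped a region of the study's HOXA9 ChIP-seq list, a list made with ectopic HA-tagged HOXA9.
HOXA9 upstream: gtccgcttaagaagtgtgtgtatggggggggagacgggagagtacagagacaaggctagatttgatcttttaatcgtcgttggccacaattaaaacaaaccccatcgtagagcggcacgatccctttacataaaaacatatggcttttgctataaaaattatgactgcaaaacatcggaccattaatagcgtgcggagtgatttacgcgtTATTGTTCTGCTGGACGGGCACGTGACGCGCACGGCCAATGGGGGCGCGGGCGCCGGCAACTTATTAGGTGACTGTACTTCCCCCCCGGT

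The strongest HOX peak of the data was HOXD peak 3, between HOXD13 and HOXD12. Its middle 300 bases are shown on the + strand (GRCh37, chr2:176962196-176962495), with the only match to the MEIS-type motif TGACAG in capitals (here on the other strand, as CTGTCA).
HOXD peak 3: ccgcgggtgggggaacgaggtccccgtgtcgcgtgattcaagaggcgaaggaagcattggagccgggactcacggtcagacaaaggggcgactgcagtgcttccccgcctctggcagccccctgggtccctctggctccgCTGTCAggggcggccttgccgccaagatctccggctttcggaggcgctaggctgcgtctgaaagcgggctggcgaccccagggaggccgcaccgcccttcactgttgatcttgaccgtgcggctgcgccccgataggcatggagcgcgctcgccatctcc

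HOXA peak 11 lay next to MIR196B, between the starts of HOXA9 and HOXA10, and is shown whole on the + strand (GRCh37, chr7:27209578-27209798). Capitals mark AGGGGGCGC, a core of the CTCF motif, on the opposite strand.
HOXA peak 11: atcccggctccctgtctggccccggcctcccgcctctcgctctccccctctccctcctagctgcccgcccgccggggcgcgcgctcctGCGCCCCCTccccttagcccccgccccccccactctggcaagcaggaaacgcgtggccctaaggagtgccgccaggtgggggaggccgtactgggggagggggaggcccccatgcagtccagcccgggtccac

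The clusters also hold microRNA genes. Of the 7 annotated in the windows, 6 had mature sequences in RefSeq (GRCh38.p14). The miR-196 family is shown because its copies were on opposite sides of the peak calls, with the seed (bases 2 to 8) in capitals. Its mature 5p forms share that seed and differ at 1 of 22 positions.
hsa-miR-196b-5p (HOXA): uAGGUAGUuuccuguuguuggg
hsa-miR-196a-5p (HOXB and HOXC): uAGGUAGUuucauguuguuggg

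The number of peaks and their summed level differed between the clusters. HOXA held 14.2 peaks per 100 kb of window, HOXC 10.2, HOXD 6.77 and HOXB 4.09, against 4.52 per 100 kb over the whole genome. Summed accessibility per kb of window, over all 4 libraries, was 0.678 ± 0.107 CPM in HOXA, 0.514 ± 0.059 in HOXD, 0.407 ± 0.0959 in HOXC and 0.12 ± 0.0463 in HOXB (SD, n = 4). HOXA was highest and HOXB lowest of the 4 clusters in each library. HOXA exceeded HOXB 5.91-fold, HOXC 1.69-fold and HOXD 1.31-fold, each in 4 of 4 libraries. These folds depend on window length, which was 119.7 kb for HOXA, 220.2 kb for HOXB, 137.2 kb for HOXC and 118.2 kb for HOXD. Not divided by length, the mean summed level was 75.5 CPM in HOXA and 27.0 CPM in HOXB with sgFLT3-DE-1. With sgNT it was 86.8 CPM in HOXA and 26.0 CPM in HOXB. HOXD exceeded HOXC in 4 of 4 libraries, with a mean log2 ratio of HOXC over HOXD of -0.36 ± 0.24 (SD). An exact two-sided sign-flip permutation test gave p = 0.125 for each of the 6 pairs (0.125 after Benjamini-Hochberg adjustment), which is the smallest p that 4 libraries allow.

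The order of HOXA and HOXD depended on the window. Without flanks HOXD had 0.596 CPM per kb and HOXA 0.548, and with flanks of 50 kb HOXD had 0.473 and HOXA 0.424, so these neighbours in the order were not separated. HOXB stayed lowest under each window tried. Removing the flanks left out HOXA peaks 1 and 2, at the start of HOTAIRM1, and HOXA peak 17, near HOXA13 and HOTTIP. HOXD was carried by few peaks, since HOXD peaks 3 and 5 held 80.4% of its summed level, against 29.4% for the top pair in HOXA, 40.2% in HOXB and 38.5% in HOXC.

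**Figure D1:**
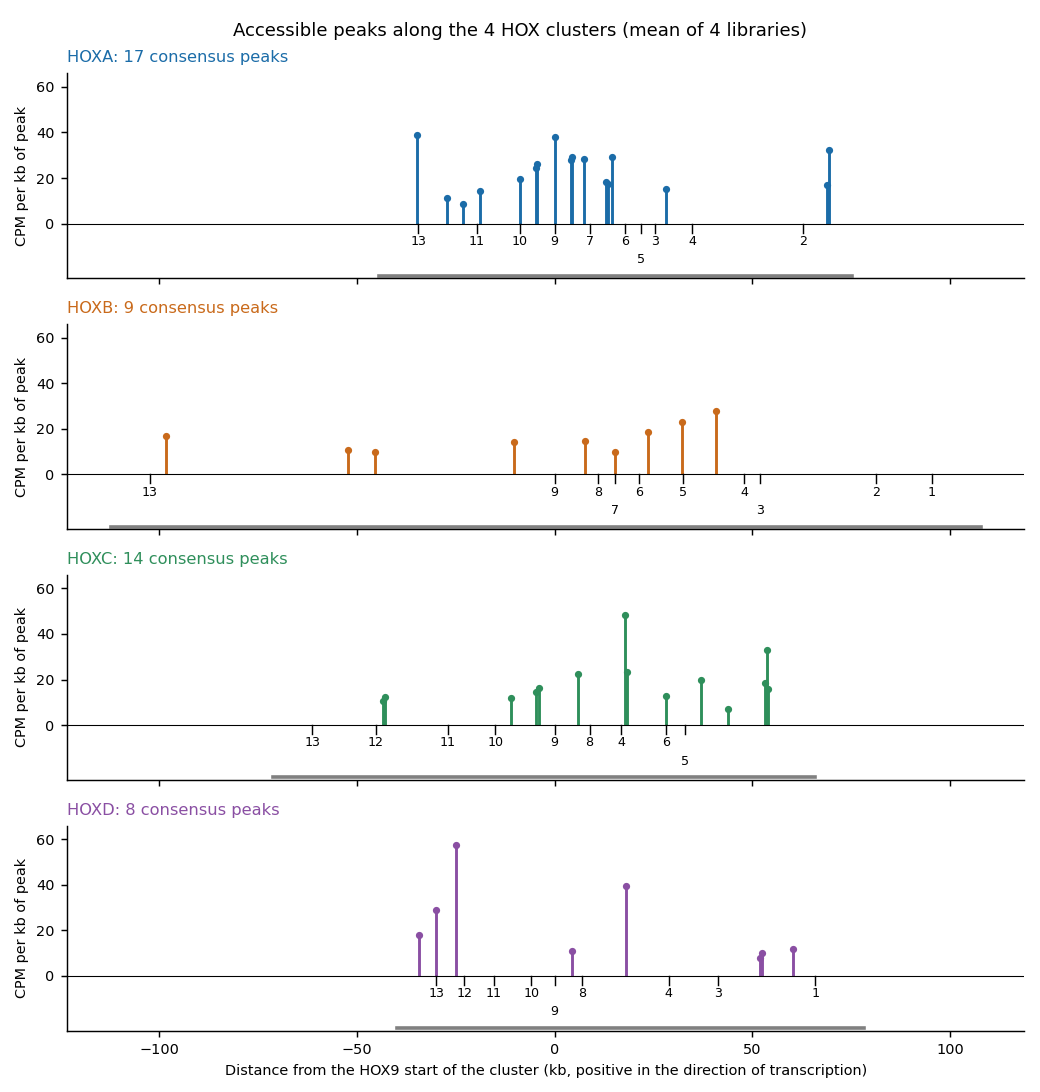
Height of each of the 48 HOX peaks (mean of 4 libraries, CPM per kb of peak) against its distance in kb from the start of the HOX9 gene, with transcription running left to right. Ticks and numbers mark the starts of the longest coding transcripts, and the grey bar is the window; HOXA peaks crowd around HOXA9 and HOXA7, while the tallest HOXD peak (57.6) stands between HOXD13 and HOXD12.

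Peaks were clustered within the clusters. In HOXA, the longest stretch without a peak ran for 40.7 kb from the peaks at HOTAIRM1 to HOXA peak 3 in an intron of HOXA3, and held the starts of 2 member genes. HOXB had 66.9 kb without a peak at the end that holds HOXB1 and HOXB2. HOXC lacked peaks over 32.0 kb between HOXC12 and HOXC10, and HOXD over 33.5 kb downstream of the HOXD3 intron peak. The HOXA peaks between HOXA3 and HOXA10 had levels from 17.5 to 38.1 CPM per kb, whereas HOXA peaks 14, 15 and 16, around HOXA11 and its antisense transcript, had 14.5, 8.57 and 11.4 CPM per kb.

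A peak of any height near the start was found for a minority of HOX genes. Within 1 kb of an annotated coding start, 12 of 38 HOX genes (31.6%) had a peak, against 12618 of 19794 coding genes (63.7%). By cluster these were 6 of 10 in HOXA, 2 of 10 in HOXB, 3 of 9 in HOXC and 1 of 9 in HOXD. The genes were HOXA3, HOXA7, HOXA9, HOXA10, HOXA11, HOXA13, HOXB5, HOXB7, HOXC4, HOXC6, HOXC9 and HOXD13. A gene's promoter level is that of its promoter peak with the most reads. The median over the 12 was 21.2 CPM per kb of peak, against 41.8 for all coding genes with a peak. Only 1 of the 12, HOXC4, was above the median of all coding genes, through a peak 981 bp from its start. Counting only the start of the longest coding transcript left 9 genes, without HOXA3, HOXA7 and HOXC9.

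In the HOXA cluster, the promoter level of HOXA13, a 5′ gene of distal limb and genital development, was 34.0 and 39.6 CPM per kb of peak with sgFLT3-DE-1, against 40.3 and 42.2 with sgNT. HOXA9, which drives self-renewal in MLL-rearranged leukemia, had 20.2 and 43.3 CPM per kb with sgFLT3-DE-1, against 36.0 and 52.9 with sgNT. The 2 were thus alike in mean per kb of peak (39.0 and 38.1), with library 1 of sgFLT3-DE-1 lowest in both. This likeness rests on peaks of unlike length, 313 bp with 12.2 CPM for HOXA13 and 111 bp with 4.23 CPM for HOXA9. The HOXA13 peak also lay by the start of HOTTIP. HOXA7, another HOXA gene kept on in such leukemias, gave 20.9 and 31.7 CPM per kb with sgFLT3-DE-1, against 22.9 and 37.5 with sgNT. HOXA10, also a progenitor gene, gave 11.8 and 22.4 CPM per kb with sgFLT3-DE-1, against 25.8 and 18.0 with sgNT. HOXA11 was the lowest of the HOXA promoters, with 8.3 and 16.3 CPM per kb with sgFLT3-DE-1, against 9.11 and 24.5 with sgNT. HOXA3, a gene nearer the 3′ end with 5 coding starts, had its promoter peak of most reads, HOXA peak 5, at 22.6 and 17.0 CPM per kb with sgFLT3-DE-1, against 11.7 and 18.7 with sgNT, beside HOXA peak 6 with fewer reads and 18.2 CPM per kb over all libraries. HOXA13 was above HOXA7 in 4 of 4 libraries, while HOXA9 was above HOXA13 in 2 of 4 and above HOXA7 in 3 of 4. HOXA2, HOXA4, HOXA5 and HOXA6 had no peak within 1 kb of a start.

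The other clusters had 1 to 3 genes with a promoter peak each. HOXC4 had the highest promoter level of all HOX genes, at HOXC peak 7 (chr12:54411696-54411961) by its upstream start, with 41.1 and 59.4 CPM per kb of peak with sgFLT3-DE-1, against 37.0 and 55.2 with sgNT. That peak lay 981 bp from the start, near the 1 kb limit, and also within 1 kb of a noncoding start. At a distance of 500 bp it did not count for HOXC4, so this rank depends on the distance chosen. The downstream start of HOXC4 held 3 more peaks, HOXC peaks 12, 13 and 14, at 18.4, 32.9 and 15.7 CPM per kb over all libraries. HOXC6 and HOXC9 shared HOXC peak 4, at 8.16 and 19.4 CPM per kb with sgFLT3-DE-1, against 4.48 and 26.7 with sgNT, and reads in that peak cannot be assigned to either gene. HOXC9 also had HOXC peak 5 of its own, with 1.68 and 1.6 CPM with sgFLT3-DE-1 and 0.922 and 1.47 CPM with sgNT. HOXC6 had HOXC peak 9 of its own, with 0.841 and 0.801 CPM with sgFLT3-DE-1 and 0.922 and 2.2 CPM with sgNT. Over all libraries HOXC peak 5 had 16.3 CPM per kb and HOXC peak 9 had 12.8, and both had too few reads to be tested. HOXD13 was the only HOXD gene with a promoter peak, at 22.2 and 33.1 CPM per kb with sgFLT3-DE-1, against 31.0 and 29.0 with sgNT. In HOXB, HOXB5 had 7.96 and 38.7 CPM per kb with sgFLT3-DE-1, against 15.7 and 29.2 with sgNT. HOXB7 was lowest of all, with 7.07 and 10.1 CPM per kb with sgFLT3-DE-1, against 15.5 and 6.17 with sgNT, from 2 to 6 reads a library. In HOXB5, HOXC4 and the shared HOXC6 and HOXC9 peak, both libraries numbered 2 were above both numbered 1.

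By paralogue group, promoter peaks were found as follows. In group 9, HOXA9 and HOXC9 had a promoter peak, at 38.1 and 14.7 CPM per kb, and HOXB9 and HOXD9 had none. In group 13, HOXA13 and HOXD13 had one (39.0 and 28.8 CPM per kb), and HOXB13 and HOXC13 had none. Group 7 was complete, with HOXA7 at 28.2 and HOXB7 at 9.71 CPM per kb, and 4 of 13 groups, namely 1, 2, 8 and 12, had no promoter peak among the 38 genes.

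**Figure D2:**
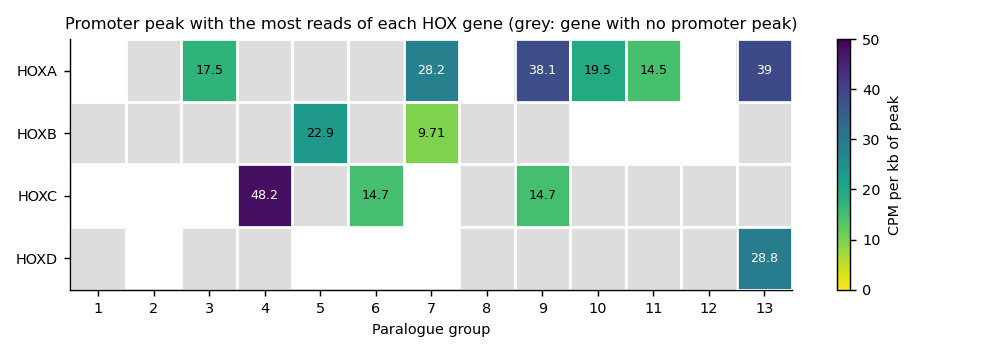
Level of the promoter peak with the most reads of each HOX gene (CPM per kb of peak, mean of 4 libraries) by cluster (rows) and paralogue group (columns). Grey cells are genes with no consensus peak within 1 kb of a coding start, white cells hold none of the 38 genes; the coloured cells number 6 in HOXA, 2 in HOXB, 3 in HOXC and 1 in HOXD, from 9.71 (HOXB7) to 48.2 (HOXC4).

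Noncoding genes were counted by the same distance, and several of their peaks also lay by coding starts. In HOXA, 10 of 11 annotated noncoding genes had a peak within 1 kb of a start, against 2 of 13 in HOXB, 2 of 10 in HOXC and 0 of 7 in HOXD. The HOXB total includes processed pseudogenes and the HOXD total an entry of unconfirmed type, all without a peak. HOXA peak 1 (chr7:27135607-27135963), at the start of HOTAIRM1, a transcript named for its place in the HOXA cluster and its rise in myeloid differentiation, had 9.25 and 13.6 CPM with sgFLT3-DE-1 and 11.1 and 12.5 CPM with sgNT. HOXA peak 17 (chr7:27239760-27240072) lay by the start of HOTTIP, a transcript from the 5′ tip of the cluster that binds WDR5, and by HOXA13. It had 10.6 and 12.4 CPM with sgFLT3-DE-1 and 12.6 and 13.2 CPM with sgNT, and every sgNT library was above every sgFLT3-DE-1 library. HOTAIR, the HOXC transcript studied as a partner of repressor complexes, had no peak at its start, nor had HAGLR in HOXD.

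Of the microRNA genes, 1 of 1 in HOXA, 1 of 2 in HOXB, 0 of 2 in HOXC and 0 of 2 in HOXD had a peak within 1 kb. MIR196B, whose product is known to target HOX transcripts, had HOXA peaks 11 and 12. HOXA peak 11 had 4.76 and 5.6 CPM with sgFLT3-DE-1 and 5.53 and 7.34 CPM with sgNT, and HOXA peak 12 had 2.24 and 6.0 CPM with sgFLT3-DE-1 and 6.46 and 4.4 CPM with sgNT. MIR196A1 in HOXB and MIR196A2 in HOXC, which share the seed printed above, had no peak, and neither had MIR615 in HOXC and MIR10B in HOXD. MIR3185, at the HOXB13 end of its window, had HOXB peak 9 nearby, with 2.24 and 3.2 CPM with sgFLT3-DE-1 and 1.23 and 2.93 CPM with sgNT.

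The highest HOX peak per kb was not at a member's promoter. HOXD peak 3 (chr2:176962078-176962613) had 26.6 and 29.8 CPM with sgFLT3-DE-1 and 31.1 and 36.0 CPM with sgNT, and at 57.6 CPM per kb it was the one HOX peak above the 90th percentile of all consensus peaks. It lay 1910 bp from the nearest coding start. HOXD peak 5 (chr2:177005270-177005726), in an intron of HOXD3, had 14.9 and 19.2 CPM with sgFLT3-DE-1 and 19.7 and 18.3 CPM with sgNT (39.4 CPM per kb), next in level after HOXC peak 7. The remaining HOXD peaks had 7.75 to 28.8 CPM per kb. In HOXB the highest was HOXB peak 1 (chr17:46662821-46663019), in an intron of HOXB3, with 3.92 and 6.0 CPM with sgFLT3-DE-1 and 4.0 and 8.07 CPM with sgNT.

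HOX peaks were rich in G and C but not tall. Their median GC content was 62.4%, against 48.0% over all peaks, and the median ratio of observed to expected CpG was 0.708, against 0.215. Median length was 184 bp, against 179 bp, and median level 17.6 CPM per kb, against 18.4. Of the 48, 22 were above the median level of all peaks and 3 were under the 10th percentile. Within 1 kb of a member's coding start lay 17 of the 48, and 22 were within 1 kb of no annotated start of a member or a noncoding gene.

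Motifs were searched in the 200 bp around each peak's midpoint on both strands. TGATTTAT, a spelling of the PBX-HOX composite, was in 0 of 48 HOX peaks (1.16% of all peaks). Other spellings were not searched, and tgatttac stands in the HOXA9 upstream sequence above, inside the window of HOXA peak 10. TGACAG was in 3 (6.25%, against 15.9% of all peaks), namely HOXC peaks 3 and 10 and HOXD peak 3. AGGGGGCGC was in 2 (4.17%, against 0.861% of all peaks), HOXA peak 11 and HOXB peak 9, the peaks beside MIR196B and MIR3185. These shares were not matched for GC content, which had a median of 62.4% in HOX peaks and 48.0% over all peaks. A match is a run of letters and not a binding site.

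The guide comparison asked whether silencing the FLT3 enhancer went with a change at the HOX clusters, which hold the gene for the factor bound there. No HOX peak passed the test. Of the 48 peaks, 32 had enough reads to be tested by edgeR's quasi-likelihood test, and 0 passed FDR 0.05 after Benjamini-Hochberg adjustment, where 0.00242% of the 82558 tested peaks of the series did. At an unadjusted p under 0.05 the number was again 0 of 32, against 1.9% of all tested peaks, and DESeq2 and limma-voom also called 0. The smallest HOX p was 0.157. Every adjusted p was 1.0. Fitted log2 fold changes of sgFLT3-DE-1 over sgNT ran from -0.66 to 0.57, with a median of -0.02 against 0.01 for all tested peaks, and standard errors from 0.254 to 0.666 (median 0.474). The simulations placed changes in peaks drawn at random from the whole series, so the size of change detectable at the HOX peaks was not estimated.

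By cluster, the fitted signs were counted. HOXA had 2 peaks higher and 10 lower of 12 tested (median log2 fold change -0.21), and HOXD 0 higher and 3 lower of 3 (-0.13). HOXB had 4 higher and 2 lower of 6 (0.12), and HOXC 8 higher and 3 lower of 11 (0.14). In all, 14 were higher and 18 lower (56.2% lower, against 48.1% of all tested peaks). These are counts of fitted signs, none of them past the test. With the GC correction 20 were higher and 12 lower, with medians of 0.06 over all, -0.07 in HOXA and -0.01 in HOXD, and with counts thinned to the smallest library the HOXB and HOXC medians were -0.19 and -0.11. The median also turned with single libraries. Without library 1 or 2 of sgFLT3-DE-1 it was 0.17 or -0.46, and without library 1 or 2 of sgNT -0.19 or 0.21. Over these 4 settings the cluster medians lay between -0.41 and 0.01 for HOXA, -0.58 and 0.92 for HOXB, -0.56 and 0.45 for HOXC and -0.35 and 0.03 for HOXD, so each changed sign with the library left out.

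**Figure D3:**
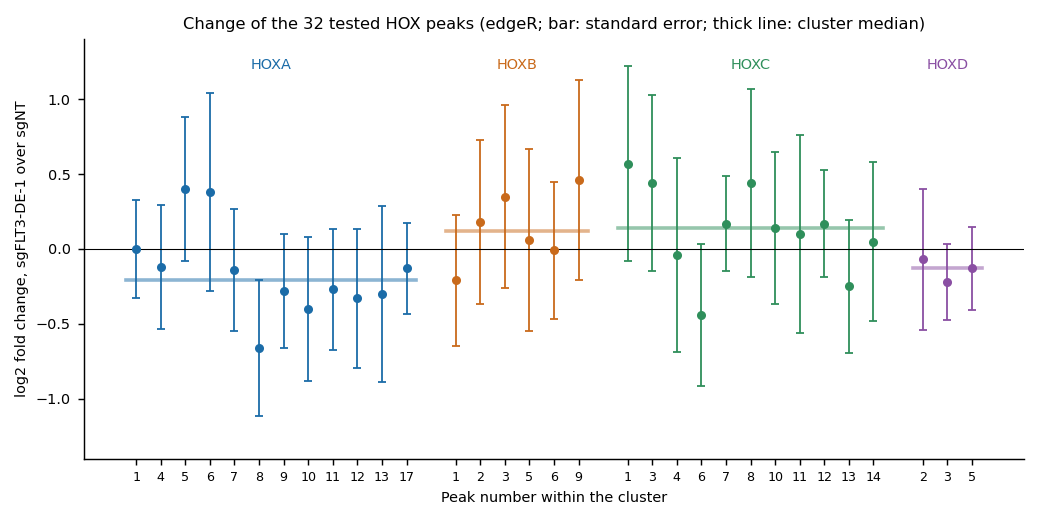
Fitted log2 fold change of sgFLT3-DE-1 over sgNT (y axis) for the 32 tested HOX peaks in order of position (x axis, peak number within its cluster). Bars are standard errors from edgeR and thick lines the cluster medians (-0.21, 0.12, 0.14 and -0.13 from left to right); the values run from -0.66 to 0.57 and no peak passed FDR 0.05.

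Of the 5 tested HOX peaks of smallest p with a negative fold change, 3 lay in HOXA. That cluster held 10 of the 18 negative values. Unadjusted p by edgeR was 0.157, 0.467 and 0.415 for these 3 (HOXA peaks 8, 9 and 10). HOXA peak 8 (chr7:27200719-27200879), between HOXA7 and HOXA9, had the smallest p of all HOX peaks. It had 4.48 and 2.8 CPM with sgFLT3-DE-1 and 5.23 and 6.24 CPM with sgNT (log2 fold change -0.66, SE 0.453, edgeR adjusted p = 1.0). HOXA peak 9 (chr7:27201042-27201273), its neighbour, had 5.89 and 5.8 CPM with sgFLT3-DE-1 and 7.07 and 7.34 CPM with sgNT (-0.28, SE 0.381). In both, the libraries of the guides did not overlap. HOXA peak 10 (chr7:27205136-27205246), at the HOXA9 start, had 2.24 and 4.8 CPM with sgFLT3-DE-1 and 4.0 and 5.87 CPM with sgNT (-0.40, SE 0.482). Here the groups overlapped, and without library 1 of sgFLT3-DE-1 the difference was -0.01. HOXA peak 5, near a HOXA3 start, was the opposite case, with 5.32 and 4.0 CPM with sgFLT3-DE-1 and 2.77 and 4.4 CPM with sgNT (0.40, SE 0.479, and 0.07 to 0.73 over the settings that left out 1 library).

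In the other clusters, HOXC peak 1, in an exon of HOXC12, had 2.24 and 3.6 CPM with sgFLT3-DE-1 and 1.23 and 2.93 CPM with sgNT, which was the highest fitted change (0.57, SE 0.651), with values of 0.03 to 1.25 when 1 library was left out. HOXC peak 3, in an exon of HOXC10, had 3.36 and 3.0 CPM with sgFLT3-DE-1 and 2.15 and 2.57 CPM with sgNT (0.44, SE 0.589). HOXC peak 8, in an intron of HOXC4 and HOXC6, had 3.36 and 2.6 CPM with sgFLT3-DE-1 and 1.54 and 2.93 CPM with sgNT (0.44, SE 0.63, and 0.01 to 0.92 with 1 library left out). Only in HOXC peak 3 of these were both sgFLT3-DE-1 libraries above both sgNT libraries. HOXB peak 9 had a fitted change of 0.46 (SE 0.666) from the levels given above. HOXC peak 6, in an intron of HOXC6, had 1.68 and 6.8 CPM with sgFLT3-DE-1 and 6.76 and 5.5 CPM with sgNT (-0.44, SE 0.475), so that library 1 of sgFLT3-DE-1 alone was low. Of the highest peak of each cluster, HOXD peak 3 had a log2 fold change of -0.22 (SE 0.254), HOXC peak 7 of 0.17 (SE 0.318), HOXB peak 1 of -0.21 (SE 0.435) and HOXA peak 17 of -0.13 (SE 0.306).

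Counting peaks whose libraries did not overlap between guides gave 1 higher with sgFLT3-DE-1 (HOXC peak 3), or 3.12% of 32, against 12.8% of all tested peaks. It gave 4 lower (HOXA peaks 8, 9 and 17 and HOXD peak 3), or 12.5%, against 14.9%. Neither share was above that of all peaks.

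Summed over each cluster, the libraries of the guides overlapped. HOXA had 64.5 and 86.5 CPM with sgFLT3-DE-1 and 79.0 and 94.7 CPM with sgNT (log2 ratio of means -0.20). HOXD had 50.7 and 63.2 CPM with sgFLT3-DE-1 and 62.4 and 66.8 CPM with sgNT (-0.18). HOXC had 42.6 and 70.5 CPM with sgFLT3-DE-1 and 47.0 and 63.1 CPM with sgNT (0.04). HOXB had 18.2 and 35.8 CPM with sgFLT3-DE-1 and 17.2 and 34.9 CPM with sgNT (0.05). Exact two-sided permutation tests over the 4 libraries gave p = 0.667 for HOXA, HOXB and HOXD and 1.0 for HOXC, where the smallest possible p was 0.333. Within libraries of the same number, the ratio of sgFLT3-DE-1 to sgNT was 0.816 and 0.913 for HOXA, 0.813 and 0.947 for HOXD, 0.906 and 1.12 for HOXC and 1.06 and 1.03 for HOXB (numbers 1 and 2).

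**Figure D4:**
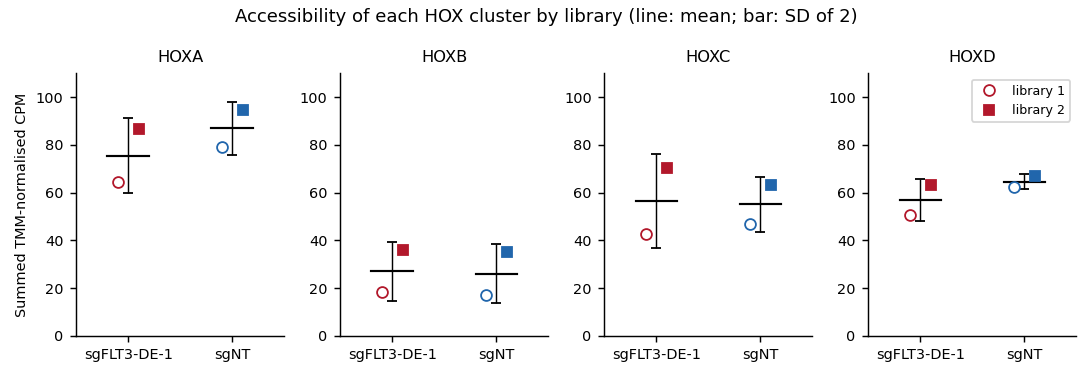
Summed TMM-normalised CPM of all peaks of each HOX cluster, by guide (x axis) and library (open circle, library 1; filled square, library 2), with the mean and the SD of 2 libraries. In every panel library 2 lies above library 1 for both guides, for HOXB at 35.8 against 18.2 with sgFLT3-DE-1 and 34.9 against 17.2 with sgNT.

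At the HOX clusters library 2 of each guide lay above library 1 in median. Over the 48 HOX peaks, the median log2 ratio of library 2 over library 1 was 0.52 for sgFLT3-DE-1 and 0.49 for sgNT, while over all consensus peaks it was -0.00 and -0.01 (on CPM + 0.5). By cluster the medians were 0.53 and 0.23 for HOXA, 0.74 and 0.83 for HOXB, 0.54 and 0.55 for HOXC and 0.38 and 0.07 for HOXD (sgFLT3-DE-1, then sgNT). In 17 of the 32 tested HOX peaks (53.1%) both libraries numbered 2 lay above both numbered 1, against 25.1% of all tested peaks, and in 0 of 32 below, against 25.2%. The highest of the 4 libraries was a library numbered 2 in 37 of the 48 HOX peaks. By library the share was 35.4% for library 2 of sgFLT3-DE-1 and 41.7% for library 2 of sgNT. Over all peaks these shares were 24.4% and 23.7%. GC content moved with this pattern. Over all peaks of at least 60% GC the median ratio was 0.22 for sgFLT3-DE-1 and 0.07 for sgNT, and over the 32 HOX peaks of that kind 0.55 and 0.36. After a correction of each library for GC content, the HOX medians were 0.36 and 0.38, and those of all peaks of at least 60% GC 0.03 and -0.00. Libraries of the same number also correlated more closely over all tested peaks than libraries of the same guide. No label says what the numbers stand for. The library ratios are a description without a test, and what else differed between the numbers was not tested.

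**Figure D5:**
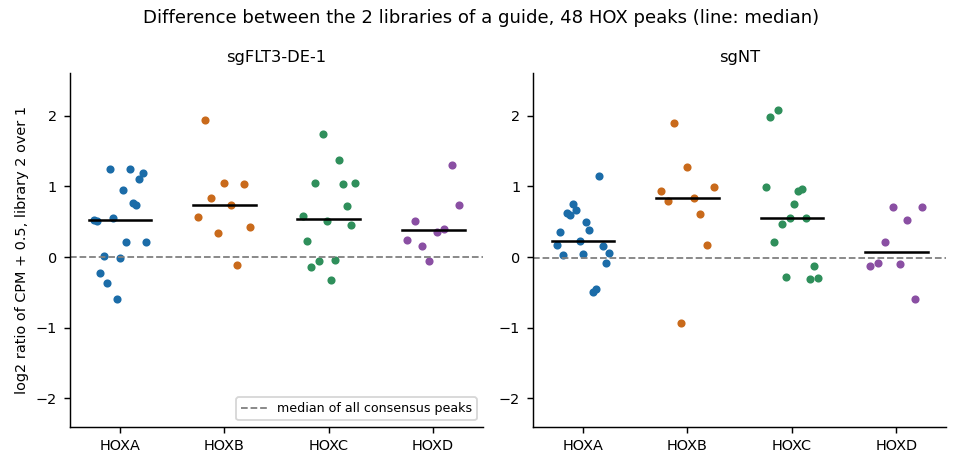
Log2 ratio of library 2 over library 1 of the same guide (CPM + 0.5) for the 48 HOX peaks, with sgFLT3-DE-1 on the left and sgNT on the right. Points are peaks, black lines the cluster medians (0.38 to 0.74 on the left, 0.07 to 0.83 on the right), and the dashed line the median of all consensus peaks (-0.00 and -0.01).

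On a list of 27 cofactors and regulators (MEIS, PBX and PKNOX partners, the MLL complex, CDX factors, Polycomb, CTCF and EVX genes), 19 (70.4%) had a promoter peak, among them MEIS1, which binds DNA with HOXA9. Those without were MEIS3, PBX2, KMT2A, CDX1, CDX2, CDX4, EVX1 and EVX2. Of their 46 tested peaks, 0 passed FDR 0.05, with 11 higher and 35 lower (median log2 fold change -0.21). Among all 18160 tested promoter peaks of coding genes, 62.7% were lower, with a median of -0.09. PKNOX1, a MEIS relative, had the smallest p, with 30.8 and 32.8 CPM with sgFLT3-DE-1 and 57.5 and 45.1 CPM with sgNT (log2 fold change -0.67, SE 0.255, edgeR adjusted p = 1.0). BMI1, a Polycomb subunit, had 9.25 and 9.81 CPM with sgFLT3-DE-1 and 19.1 and 12.8 CPM with sgNT (-0.73, SE 0.311, adjusted p = 1.0 by edgeR). CTCF, which binds insulators inside the clusters, had 6.17 and 8.01 CPM with sgFLT3-DE-1 and 11.4 and 11.0 CPM with sgNT at its peak of smallest p (-0.62, SE 0.341).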

How the data were processed

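ATAC-seq of SEM cells with dCas9-KRAB and sgFLT3-DE-1 or sgNT gave 4 libraries, grouped by title and treatment in the labels. The authors deposited raw counts per consensus peak and the same 139872 peaks as positions on hg19 (GRCh37). The sources differ on how these were made. The extract protocol names cutadapt and Bowtie2, whereas the notes of the submitters name BWA, Trim Galore (0.4.4), SAMtools (1.2), bedtools (2.24.0) and MACS2 (2.1.1.20160309). Peaks were called on short fragments of these same libraries, per the study's supplement. No source used here gives the fragments counted or a shift of reads for the transposase.

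Counts were fitted in edgeR 4.0.16 (R 4.3.3) over all peaks kept by filterByExpr (minimum count 10, minimum total 15), with TMM factors, the guide as the only term and Benjamini-Hochberg adjustment over 82558 peaks. Dividing the size of a log2 fold change by the square root of its F gave the SE. The procedure was tested on simulated data. Genes and starts came from GENCODE 44 lifted to GRCh37, and a start counted as peaked within 1 kb. Cluster levels are summed CPM per kb of window. Depth was 2683477 to 4831164 counts per library, so SEs at few reads are wide. Alternatives were RLE factors, total counts, loess offsets, a GC correction (lowess, span 0.3), other filters (none, or a mean count of 50), DESeq2 1.42.0, limma-voom (limma 3.58.1), the replicate number as a covariate, thinning, leaving out each library, and other windows or distances. The members and lists were chosen with earlier results of these data known. Named in the text were genes with a promoter peak, peaks at HOXA9-bound regions, the 5 tested HOX peaks of smallest p in each direction, the highest peaks, peaks by noncoding starts, and up to 3 genes of the cofactor list.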

Additional observations from a re-analysis of the deposited data

How the results depend on the processing

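No HOX peak passed FDR 0.05 under any alternative run. With the replicate block (the replicate number as a covariate) 0 were called and the median log2 fold change of the tested HOX peaks was -0.08, or 0.02 with the GC correction added. The labels do not say that equal numbers share a batch, and deviations of same-numbered libraries correlated at 0.397 over all tested peaks. Leaving out a library moved that median between -0.46 and 0.21, with 0 calls each time. The cluster log2 ratios then lay between -0.43 and -0.01 for HOXA, -0.52 and 0.65 for HOXB, -0.37 and 0.36 for HOXC and -0.35 and -0.03 for HOXD. Single peaks changed sign when a library was left out, with ranges of -0.67 to 0.33 for HOXB peak 1, -0.08 to 1.14 for HOXB peak 9, -1.84 to 0.15 for HOXC peak 6 and -0.14 to 0.45 for HOXC peak 7. HOXA peak 17 turned to 0.05 with the GC correction and 0.04 with that and the replicate block. With total counts only, 2 peaks in place of 4 were lower without overlap. Cluster levels in CPM per kb became 0.548 for HOXA and 0.596 for HOXD without flanks, and 0.424 for HOXA and 0.301 for HOXC with flanks of 50 kb. Per kb of covered peak length, another unit, they were 24.7 for HOXA, 16.7 for HOXB, 19.1 for HOXC and 33.1 for HOXD. HOX genes with a promoter peak numbered 14 at 2 kb, 11 at 500 bp, 9 at the longest transcript's start and 10 with a mean count of at least 10. The cause of these shifts was not tested. Few reads per peak and 2 libraries per guide limit every value.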
